A study of Rattus norvegicus with 48 samples.

Results

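Kidneys of 2 rat strains, named F and FL in the labels, were compared after 10 days of indole-3-carbinol. The comparison rested on 8 of the 48 arrays in the series, 4 labelled FL at day 10 and 4 labelled F at day 10, and covered all 8797 probe sets. Arrays were taken by strain and day from their titles, with no measured value involved. Male rats, 12 weeks old in the sample labels, received 100 mg per kg body weight of indole-3-carbinol each day by gavage for 7 or 10 days, and controls, called day 0 here, received vegetable oil. The series design calls the treated days induction and lists 4 biological replicates for each of 12 groups (strains F, L, FL and LF at days 0, 7 and 10). Neither the meaning of the strain letters nor the genetic relation of FL to F is given in the labels. The labels also leave unstated whether 1 array holds RNA of 1 rat or of several of the 8 rats per treatment group, so the spread between arrays is that of the deposited samples. Values are log2 array signals, and each difference is the FL mean minus the F mean, ± the standard error (SE) of a limma fit to all 48 arrays. A gene was called changed where its p-value, adjusted by Benjamini and Hochberg over all probe sets, was under 0.05.

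Indole-3-carbinol is a compound from brassica vegetables whose acid products activate the aryl hydrocarbon receptor, and this receptor switches on Cyp1a1. Ace encodes angiotensin-converting enzyme, which cuts angiotensin I to the pressor peptide angiotensin II and also degrades kinins. In the kidney it is abundant in the brush border of the proximal tubule and on endothelium. Injured tubules are known to raise Havcr1 (kidney injury molecule), Lcn2 (lipocalin), Clu (clusterin) and Timp1 (an inhibitor of matrix proteases).

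The promoters of the genes called at day 10 are shown because both genes had lower signal in FL. Each line gives the 250 bases before the RefSeq gene start on the plus strand of build GRCr8, a reference that need not carry the alleles of strain F or FL. Capitals mark the GC box GGGCGG, searched on both strands with overlapping matches kept. Both genes had an entry in the RefSeq promoter table.
Ace, chr10:91409879-91410128: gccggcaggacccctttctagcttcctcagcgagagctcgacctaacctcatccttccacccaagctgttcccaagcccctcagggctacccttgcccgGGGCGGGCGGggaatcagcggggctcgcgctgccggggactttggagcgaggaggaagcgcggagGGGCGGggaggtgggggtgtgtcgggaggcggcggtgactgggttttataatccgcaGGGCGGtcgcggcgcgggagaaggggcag
Pitpnm1, chr1:210823366-210823615: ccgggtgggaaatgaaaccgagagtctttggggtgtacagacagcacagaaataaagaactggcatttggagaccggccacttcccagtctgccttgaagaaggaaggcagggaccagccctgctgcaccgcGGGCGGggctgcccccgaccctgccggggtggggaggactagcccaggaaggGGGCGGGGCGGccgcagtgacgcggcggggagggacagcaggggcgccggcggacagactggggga
The GC box matched 4 times upstream of Ace and 3 times upstream of Pitpnm1, and 30.5% of the 33469 promoters in the table held at least 1 match in the same window. The TATA box TATAAA, also searched on both strands, matched 1 time for Ace and 0 times for Pitpnm1, against 12.9% of all promoters. The Ace match lay on the minus strand, reading TTTATA in the stretch above, so it is not in the direction of the gene. The core of the aryl hydrocarbon receptor element, GCGTG, searched in the same way, matched neither stretch and was present in 25.9% of promoters. These matches describe letters and are not evidence of binding.

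The 8 arrays carried the defining genes of kidney tubules at high signal. Umod, the major urinary protein of the loop of Henle, lay between 12.53 and 12.96, and Lrp2, the endocytic receptor of the proximal tubule, between 11.64 and 11.97. Markers of tissue outside the kidney were dim, with Star, an adrenal gene, at 3.95 to 4.34 and Adipoq, an adipocyte gene, at 3.92 to 5.13. Array medians ran from 5.66 to 5.97, and correlations between arrays overlapped within FL (0.980 to 0.991), within F (0.979 to 0.988) and between the strains (0.978 to 0.991). Replicate 4 of FL and replicate 4 of F had the lowest and second-lowest spread of signal over probe sets among all 48 arrays, 2.29 and 2.31. Values without both arrays are given for the count of calls and for Ace, Pitpnm1, Cyp1a1 and Hmox1.

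FL and F kidneys differed little at day 10. Of 8797 probe sets, 2 were called (0.0227% of those tested): Ace and Pitpnm1, both lower in FL, with 0 called higher. With the called pair included, 426 had an unadjusted p under 0.05 (4.84%), 243 of them higher and 183 lower in FL. The arrays of the 2 strains did not overlap for 54 probe sets lower in FL (0.614%) and 53 higher in FL (0.602%). Over all probe sets the median difference was 0.03, with 59.3% above 0, and the median SE was 0.14. That median was −0.015 after array medians were subtracted and 0.0975 without FL replicate 4, so the share above 0 moves with the scaling and with single arrays. Only 11 probe sets differed by more than 1 in either direction. Leaving out both low-spread arrays gave 1 call in place of 2, and fitting only the 8 arrays gave 0. Other settings gave more calls: 3 with array medians subtracted and 5 with a replicate block. A second quantile normalization gave 6, array weights 6 and the array spread as a covariate 11.

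**Figure D1:**
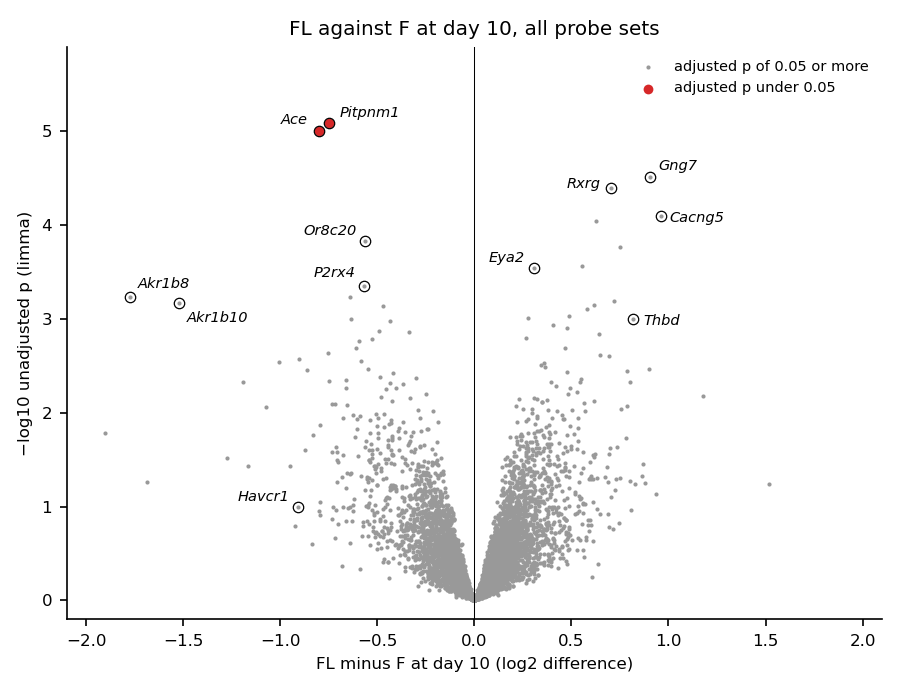
Each point is 1 of 8797 probe sets, plotted by its FL minus F log2 difference at day 10 (x axis) and −log10 of its unadjusted limma p (y axis); red points passed an adjusted p of 0.05 and open circles mark labelled genes. Ace and Pitpnm1 are the 2 red points, both left of 0, while Akr1b8 and Akr1b10 have larger differences at weaker p.

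Ace was lower in FL. The 4 FL arrays read 6.64, 6.20, 6.15 and 5.77 and the 4 F arrays 7.34, 6.97, 7.21 and 6.45, in order of replicate number. The groups overlapped only through F replicate 4, the lowest F array, which sat below FL replicate 1. The difference was −0.80 ± 0.16 (adjusted p = 0.0431, 95% interval −1.12 to −0.48), a 1.74-fold lower signal. Without both low-spread arrays it was −0.84 (adjusted p = 0.0292). Ace was called in 10 of 17 alternative settings, single-array omissions among them. Its lowest adjusted p there was 5.79e-06, with the array spread as a covariate. The call rests on the spread shared over all 48 arrays: with the 8 arrays alone the adjusted p was 1, and leaving out single arrays moved it between 0.00161 and 0.262, past the threshold in 2 of 8 cases. In whole kidney RNA, fewer cells of a type and less RNA per cell cannot be told apart.

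The lower Ace signal in FL was also present on other arrays of the same strains. In carrier kidneys the FL arrays read 6.45, 6.06, 6.08 and 6.48 for Ace and the F arrays 7.64, 7.68, 7.49 and 7.65, which did not overlap. The day 0 difference was −1.35 (adjusted p = 1.55e-06) and the day 7 difference −1.03 (adjusted p = 0.000329). The day 10 difference was thus 0.55 ± 0.22 closer to 0 than at day 0, and that change did not pass (adjusted p = 0.957). Mean Ace signal was 7.62, 7.23 and 6.99 in F at days 0, 7 and 10, and 6.27, 6.20 and 6.19 in FL.

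Pitpnm1, a phosphatidylinositol transfer protein bound to membranes, was the other called gene. Its FL arrays read 6.47, 6.66, 6.36 and 6.32 and its F arrays 7.47, 7.00, 7.43 and 6.90, with every FL array below every F array. The difference was −0.75 ± 0.15 (adjusted p = 0.0431, 95% interval −1.04 to −0.45), a 1.68-fold lower signal in FL. The same strain difference stood at day 0 (−0.93, adjusted p = 0.000638) and at day 7 (−0.75, adjusted p = 0.00649), each on other arrays. Without both low-spread arrays the difference was −0.80 and the adjusted p 0.0685. Leaving out single arrays gave adjusted p-values from 0.011 to 0.262, past the threshold only without F replicate 4. Over the 17 alternative settings, these omissions among them, Pitpnm1 was called in 8.

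**Figure D2:**
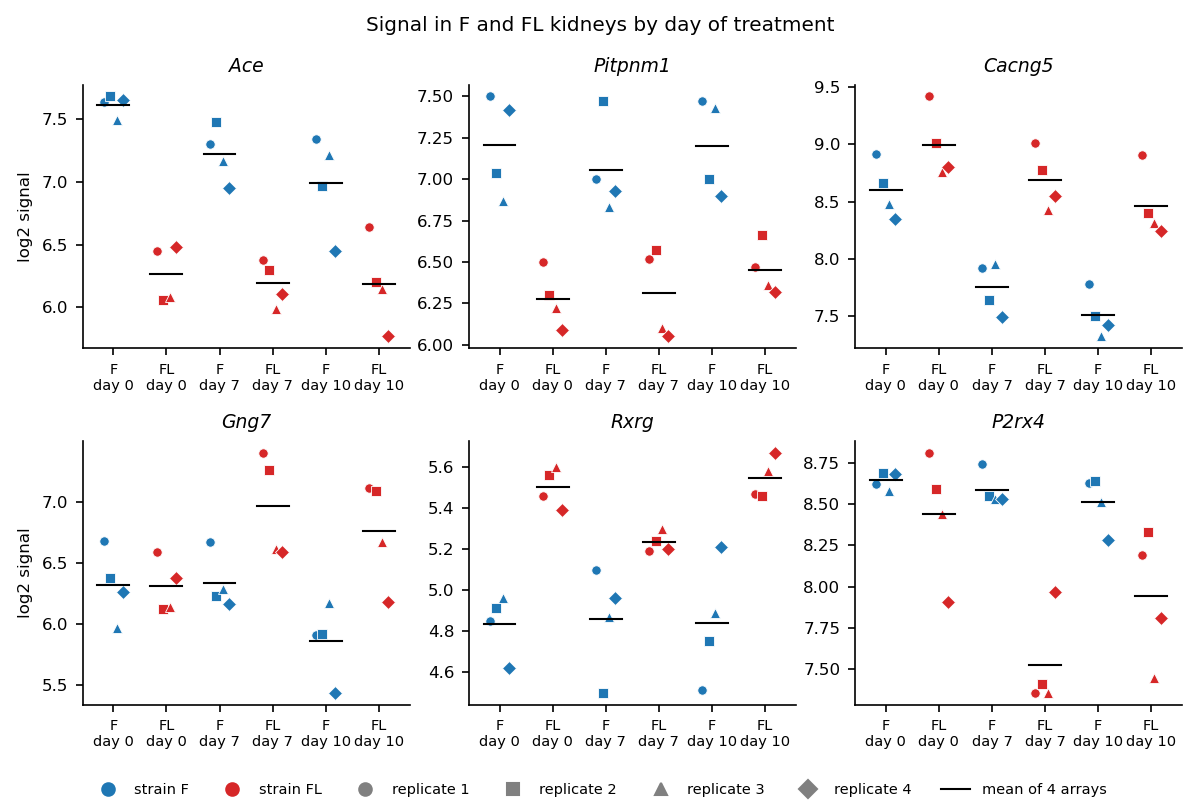
Log2 signal (y axis) of 6 genes in F (blue) and FL (red) kidneys at days 0, 7 and 10, 1 point per array with its shape giving the replicate number and a line at the mean of 4 arrays. Ace and Pitpnm1 are lower in FL on all 3 days and Rxrg is higher, whereas Gng7 has overlapping strains at day 0.

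No gene was called higher in FL, and the 10 genes with the smallest p in that direction are given as values. Gng7, a gamma subunit of G proteins, read 7.11, 7.09, 6.67 and 6.18 in FL and 5.91, 5.92, 6.17 and 5.44 in F. FL lay above F on every array, by the narrow gap from 6.17 to 6.18, with a difference of 0.90 ± 0.19 (adjusted p = 0.0882). At day 0 Gng7 differed by −0.01, and at day 7 by 0.63 (adjusted p = 0.132). Rxrg, a nuclear receptor that pairs with retinoic acid and other receptors, read 5.47, 5.46, 5.58 and 5.67 in FL and 4.51, 4.75, 4.89 and 5.21 in F, again without overlap. Its difference of 0.71 ± 0.15 (adjusted p = 0.0882) was close to the day 0 value of 0.67 (adjusted p = 0.0905). Gng7 passed the threshold in 6 of 17 alternative settings and Rxrg in 4 of 17.

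Cacng5, an auxiliary subunit of ion channels, had FL arrays at 8.91, 8.40, 8.31 and 8.24 and F arrays at 7.78, 7.50, 7.32 and 7.42. The difference was 0.96 ± 0.22 without overlap (adjusted p = 0.132), beside 0.94 at day 7, where it was called (adjusted p = 0.0308), and 0.40 at day 0 (adjusted p = 0.995). Btc (betacellulin, a ligand of the epidermal growth factor receptor) read 6.80, 6.08, 6.49 and 6.11 in FL against 5.73, 5.67, 5.78 and 5.80 in F. It differed by 0.63 ± 0.14 (adjusted p = 0.132), with 0.08 at day 0 and 0.02 at day 7. Pla2g7, which degrades platelet-activating factor, differed by 0.75 ± 0.18 (adjusted p = 0.189), and its lowest FL array of 4.39 lay just under the highest F array of 4.42. Eya2, a transcriptional coactivator, differed by only 0.31 ± 0.08, but its FL arrays (5.12 to 5.31) stayed above its F arrays (4.86 to 4.97).

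The other 4 genes of that ranking also missed the threshold. Ptn (pleiotrophin, a heparin-binding growth factor) differed by 0.72, C1qc (a chain of complement C1q) by 0.62, Mmp9 (gelatinase B) by 0.58 and Cyp26a1 (which hydroxylates retinoic acid) by 0.49. Their adjusted p-values were 0.378, 0.378, 0.383 and 0.402. FL and F did not overlap for Ptn (6.93 to 7.54 against 6.03 to 6.85) or C1qc (6.53 to 7.24 against 5.93 to 6.50). They overlapped for Mmp9, and for Cyp26a1 at F replicate 4 (5.03, above 4.96 in FL replicate 3 and 5.01 in FL replicate 4). At day 0 Ptn, C1qc and Cyp26a1 differed by 0.07, −0.17 and −0.06, and Mmp9 by 0.45.

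Among genes lower in FL, 8 followed Ace and Pitpnm1 by p without passing. P2rx4, an ATP-gated cation channel, read 8.19, 8.33, 7.45 and 7.81 in FL and 8.63, 8.64, 8.51 and 8.28 in F. The groups met at 8.33 and 8.28, and the difference was −0.57 ± 0.15 (adjusted p = 0.354). At day 7 P2rx4 was called lower in FL (−1.06, adjusted p = 0.000109), and at day 0 it differed by −0.20. P2rx7, the next measured gene along the chromosome and another ATP-gated channel, was added after its values were seen. It differed by −0.53 ± 0.16 at day 10 (adjusted p = 0.478) and by −0.88 at day 7 (adjusted p = 0.0016).

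Akr1b8 and Akr1b10, neighbouring genes for aldo-keto reductases of similar sequence, had large but uneven differences. Akr1b8 read 7.42, 4.01, 4.65 and 3.83 in FL against 7.51, 6.37, 7.15 and 5.98 in F. FL replicate 1 thus sat with F, and the other 3 FL arrays lay below all F arrays. The difference was −1.77 ± 0.47 (adjusted p = 0.378), the largest fall among probe sets with 1 gene symbol. Akr1b10 read 8.62, 6.63, 6.29 and 5.11 in FL against 8.88, 8.18, 8.06 and 7.62 in F, again with FL replicate 1 among the F arrays, a difference of −1.52 ± 0.41 (adjusted p = 0.378). Without FL replicate 1, both were called lower in FL, Akr1b8 by −2.59 (adjusted p = 0.000515) and Akr1b10 by −2.17 (adjusted p = 0.00171). That array was the FL array farthest from the others, so its removal is no test. Each gene passed in only 1 of 8 single-array omissions. The adjusted p of Akr1b10 ran up to 0.854, and that of Akr1b8 ran higher still. Akr1b10 was also called with the array spread as a covariate (adjusted p = 0.0237). At day 0 the pair differed by −1.41 and −1.66, and at day 7 by −0.95 and −0.21, none called. The day 0 FL arrays of Akr1b8 were also uneven (3.85 to 6.42). Signal shared between the probes of the pair was not examined.

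Sstr1, a somatostatin receptor, read 3.88, 3.68, 4.14 and 4.21 in FL and 4.52, 4.68, 4.98 and 4.27 in F. The strains did not overlap, and the difference was −0.64 ± 0.18 (adjusted p = 0.402), beside 0.26 at day 0. The remaining genes of the ranking, Or8c20, Or1e22, Or4c124b and Or7g23e, encode olfactory receptors. Their signals lay near the bottom of the scale, for example 1.59 to 1.85 in FL against 2.19 to 2.34 in F for Or8c20 (−0.56 ± 0.13, adjusted p = 0.185). Of 840 olfactory receptor genes measured, 0 were called, 18 were lower without overlap (2.14%, against 0.614% of all probe sets) and 3 higher (0.357%, against 0.602%), with a median difference of −0.06. Their median signal was 2.58 against 5.83 for all probe sets.

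**Figure D3:**
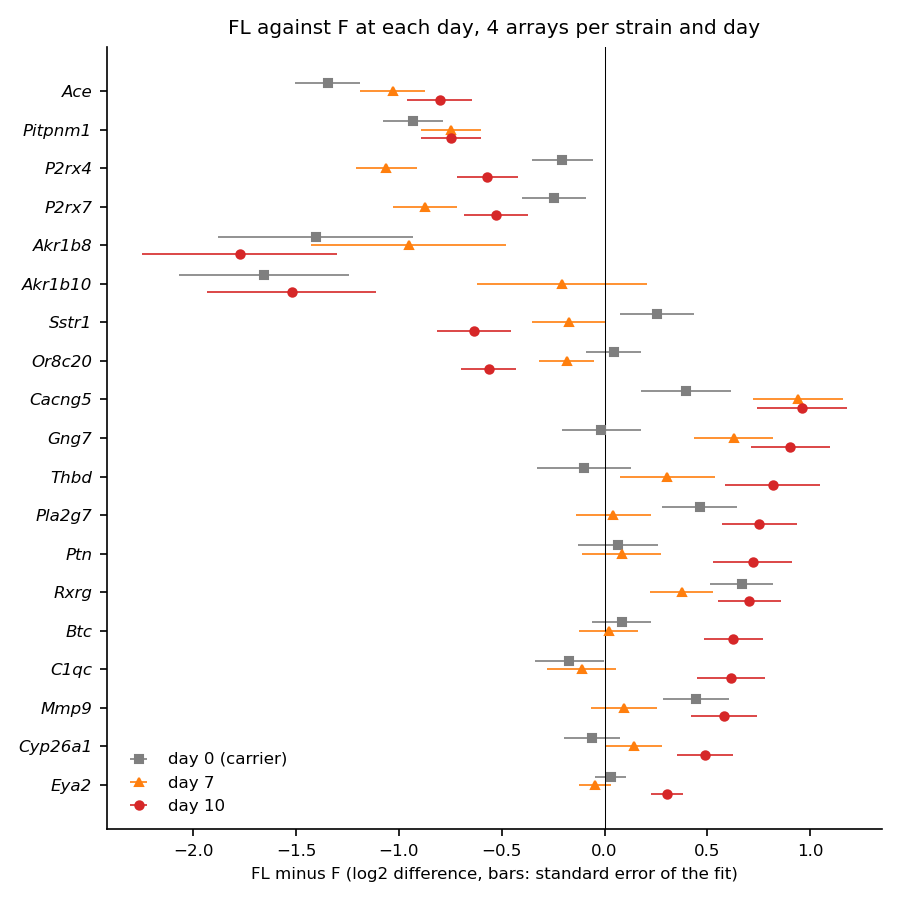
FL minus F log2 difference at days 0, 7 and 10 (x axis, bars are the SE of the fit, 4 arrays per strain and day). Shown are genes of smallest day 10 p in either direction, without Or1e22, Or4c124b and Or7g23e, and also P2rx7 and Thbd. Ace, Pitpnm1 and Rxrg are among several genes on the same side of 0 on all 3 days, whereas Btc, C1qc and Eya2 lie near 0 at days 0 and 7.

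Whether a strain difference had changed over the treatment was tested directly. For the day 10 minus day 0 change of the FL against F difference, 0 probe sets were called by limma (422 had an unadjusted p under 0.05, smallest adjusted p 0.908). For day 10 minus day 7, a contrast added after the values were seen, 0 were called (696 with an unadjusted p under 0.05, smallest adjusted p 0.214). So no difference at day 10 was shown to be one of treated kidneys alone. Day 0 itself had 6 calls (0.0682%), among them Ace and Pitpnm1, and day 7 had 58 (0.659%), 53 of them lower in FL. That split depended on the scaling: 51 of 69 calls were lower with array medians subtracted, 48 of 80 after a second quantile normalization and 34 of 57 with the array spread as a covariate. Of these 53, 42 were still below 0 at day 10, against 40.0% of all probe sets. The 2 called there were Ace and Pitpnm1, the only calls at day 10 (0.0227% of all probe sets). The median difference of the 53 was −0.79 at day 7, −0.18 at day 10 and −0.07 at day 0. These 53 were chosen by their day 7 values, so a value nearer to 0 on other arrays is no test.

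Genes of the renin-angiotensin and kinin system did not move with Ace. Of 24 genes on the list 14 were measured, and 1 was called lower (Ace) and 0 higher, against 0.0227% of all probe sets called. Of the 14, 11 lay above 0, against 59.3% of all probe sets. The list median was 0.09 against 0.03 for all probe sets. Agt (angiotensinogen, the precursor of the angiotensins) read 7.72, 8.01, 7.77 and 7.53 in FL and 7.53, 7.40, 7.32 and 7.10 in F, a difference of 0.42 ± 0.14 that was not called (adjusted p = 0.759). The groups touched at 7.53. Agtr1a, the main receptor for angiotensin II, differed by 0.09 ± 0.21 and turned to −0.02 with the array spread as a covariate. Agtr2, the other angiotensin II receptor, was dim (1.78 to 2.91) and differed by 0.47 ± 0.36.

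Targets of the aryl hydrocarbon receptor and of Nrf2 included no called gene among 13 measured of 20, with a list median of 0.04. Cyp1a1 read 6.83, 6.79, 6.66 and 5.70 in FL and 6.83, 7.08, 7.39 and 7.60 in F, so the strains met at 6.83. The difference of −0.73 ± 0.43 was not called (adjusted p = 0.998, 95% interval −1.61 to 0.15). It was −0.34 without both low-spread arrays, among them FL replicate 4, the lowest FL array. On carrier arrays Cyp1a1 lay between 4.09 and 5.03 in FL and between 3.84 and 4.75 in F, below all 8 day 10 arrays of both strains. At day 7 it was called lower in FL (−1.83, adjusted p = 0.0321). Nqo1, a quinone reductase, differed by 0.49 ± 0.24, and Akr7a3, an aldehyde reductase, by 0.47 ± 0.14 (adjusted p = 0.55).

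Markers of tubular injury and repair had 0 of 26 measured genes called at day 10 in either direction, where 0.0227% of all probe sets were called. At day 7, 5 were called lower in FL, where 0.659% of all probe sets were called. The median difference of the 26 was −0.06 at day 10, −0.50 at day 7 and −0.13 at day 0. Over all probe sets it was 0.03, −0.065 and −0.04. The day 10 median of the list ran from −0.18 to 0.04 over the alternative settings. Havcr1 read 4.64, 5.43, 8.03 and 5.76 in FL and 7.37, 7.68, 5.44 and 7.00 in F. FL replicate 3 was above every F array. The FL arrays at 4.64 and 5.43 were below every F array, and that at 5.76 was below all F arrays but replicate 3. The mean difference of −0.91 ± 0.54 was not called (adjusted p = 0.998, with a 95% interval reaching up to 0.19), whereas at day 7 it was −2.35 (adjusted p = 0.0308). On carrier arrays Havcr1 lay between 3.55 and 4.00 in both strains, below all 8 day 10 arrays.

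Replicate 3 of FL also had the highest FL signal for Clu, Gpnmb and Fgb. For Clu the FL arrays read 8.67, 8.91, 9.83 and 8.46 and the F arrays 9.43, 9.85, 8.95 and 9.59, with FL replicate 3 among the F arrays and F replicate 3 close to FL. Its difference was −0.49 ± 0.21 (adjusted p = 0.998), beside −0.97 at day 7 (adjusted p = 0.0235). Gpnmb, a glycoprotein of macrophages and injured epithelium, differed by −0.37 ± 0.18, beside −0.80 at day 7 (adjusted p = 0.025). Fgb, the beta chain of fibrinogen, read 6.95 in FL replicate 3 and 5.64 to 6.17 in the other FL arrays, and differed by −0.26 ± 0.23. Hspb1, a small heat shock protein, differed by −0.25 ± 0.13 after −0.84 at day 7 (adjusted p = 0.000381).

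Timp1 and Lcn2 hardly separated the strains at day 10. Timp1 read 6.26, 6.81, 7.05 and 5.94 in FL and 6.37, 6.42, 6.32 and 6.01 in F, a difference of 0.24 ± 0.20, whereas at day 7 it was called lower in FL (−0.84, adjusted p = 0.0321). Lcn2 read 4.61 to 4.83 in FL and 4.70 to 5.12 in F, a difference of −0.23 ± 0.20 (adjusted p = 0.998). Hmox1, the inducible heme oxygenase, was split within both strains. It read 4.68, 5.89, 9.59 and 9.20 in FL and 8.61, 9.09, 8.64 and 5.74 in F, and its difference was −0.68 ± 0.86 (adjusted p = 0.998). Single arrays moved that value: it was −2.06 without both low-spread arrays and 0.21 without FL replicate 1.

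**Figure D4:**
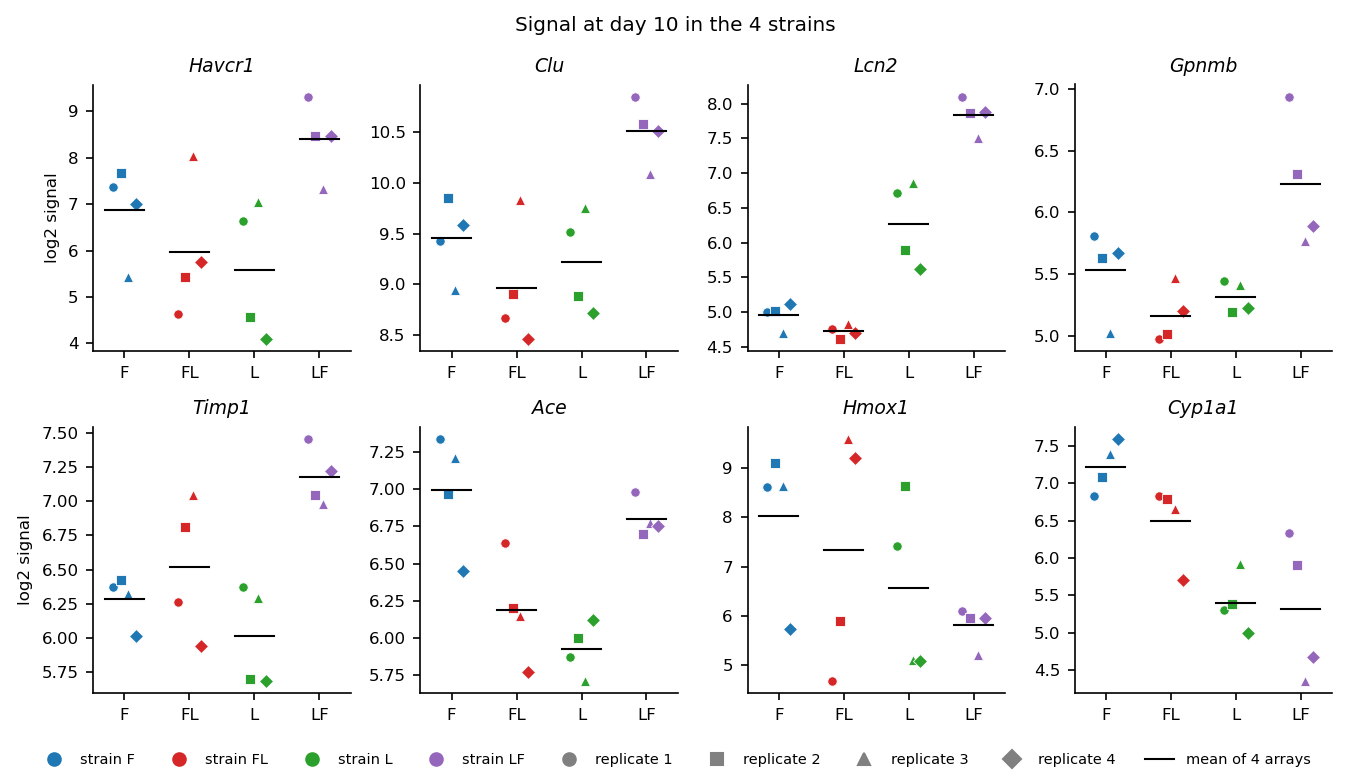
Log2 signal (y axis) of 8 genes at day 10 in strains F, FL, L and LF, 1 point per array with its shape giving the replicate number and a line at the mean of 4 arrays. The 4 LF arrays lie above all L arrays for Havcr1, Clu, Lcn2, Gpnmb, Timp1 and Ace, whereas FL and F overlap, or for Cyp1a1 meet at 6.83, in all 8 genes.

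In the other strain pair Ace differed in the other direction. LF against L at day 10, measured on 8 other arrays, had 28 calls (0.318%), 22 of them higher in LF. Ace was 0.88 higher in LF (adjusted p = 0.00181), Havcr1 2.82 (adjusted p = 0.00388), Lcn2 1.57 (adjusted p = 7.1e-06), Clu 1.29 (adjusted p = 0.000489) and Timp1 1.17 (adjusted p = 0.000773). The difference between the FL against F and the LF against L contrasts, added after the values were seen, passed for 13 probe sets (0.148%), 8 of them lower. For Ace it was −1.68 ± 0.22 (adjusted p = 3.67e-05), for Lcn2 −1.80 ± 0.29 (adjusted p = 0.000703), for Clu −1.77 ± 0.30 (adjusted p = 0.0014) and for Havcr1 −3.73 ± 0.77 (adjusted p = 0.0185). Gpnmb (−1.28), Akr7a3 (0.98) and Cacng5 (1.42) also passed, and Timp1 (−0.93, adjusted p = 0.304) did not. Of the 13, 11 were called in LF against L and 1, Ace, in FL against F, and the 6 not named here had FL minus F differences of −0.43 to 0.22. Pitpnm1 differed by −0.08 between LF and L.

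Markers of macrophages and dendritic cells had the highest median of the 28 gene lists. Of 29 listed genes 19 were measured, 0 were called in either direction, 17 lay above 0 and 8 had an unadjusted p under 0.05, against 59.3% above 0 and 4.84% with such a p among all probe sets. Their median difference was 0.34, against 0.03 for all probe sets. It was −0.065 at day 7 and −0.095 at day 0, against −0.065 and −0.04 for all probe sets. The mean over the list ran from 5.64 to 6.08 in the FL arrays and from 5.42 to 5.78 in the F arrays, which overlap. C1qc is given above. C1qa, another chain of C1q, differed by 0.43 ± 0.18, and the third chain gene, C1qb, by 0.34 ± 0.18 without overlap (6.04 to 6.34 in FL, 5.70 to 5.87 in F). Itgam, the integrin alpha chain of myeloid cells, also did not overlap but differed by only 0.15 ± 0.08.

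Of the markers that define macrophages, Adgre1 read 6.06, 5.76, 5.54 and 5.13 in FL and 5.52, 5.01, 5.19 and 4.98 in F, a difference of 0.45 ± 0.21 (adjusted p = 0.998). Aif1 differed by 0.15 ± 0.13, Cd4, which rat macrophages also carry, by 0.50 ± 0.18, and Cd68 had no named probe set. C1qb, Itgam, Adgre1 and Aif1 were added after their values were seen. Complement and coagulation genes, a list that shares the C1q genes, had 0 of 21 called, a median of 0.14 and 17 above 0, against 59.3% of all probe sets. Thbd (thrombomodulin, an endothelial anticoagulant receptor) read 6.89, 7.10, 6.46 and 6.62 in FL and 6.35, 5.42, 6.34 and 5.69 in F. It did not overlap and differed by 0.82 ± 0.23 (adjusted p = 0.402). What part a different number of macrophages has in these values was not tested.

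Fatty acid oxidation genes included no called gene. Of 27 measured, 23 lay below 0, against 40.0% of all probe sets, with a median of −0.10, beside −0.49 and 4 called lower at day 7 (0.659% of all probe sets called). The day 10 median ran from −0.18 to 0.01 over the alternative settings, the highest without FL replicate 4. Ehhadh, a peroxisomal enzyme of fatty acid oxidation, differed by −0.34 ± 0.14 and Eci1, a mitochondrial isomerase of that pathway, by −0.35 ± 0.21 (adjusted p = 0.998 for both). Eci1 had been called at day 7 (−1.04, adjusted p = 0.00975). Circadian clock genes had a median of 0.08 with 0 of 13 called, beside −0.42 and 4 called lower at day 7, when 0.659% of all probe sets were called. Over all probe sets the median was −0.065 at day 7. Nr1d1, a repressor of the clock, differed by 0.21 ± 0.26.

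The interferon response list had 16 of 20 measured genes above 0, against 59.3% of all probe sets, and a median of 0.17, with 0 called. That median was 0.04 without FL replicate 1 and 0.33 without FL replicate 4. Mx1, an antiviral GTPase, differed by 0.55 ± 0.31. Genes of p53 and stress had a median of 0.12 with 0 of 25 called, led by Jun (0.46 ± 0.17), a subunit of the transcription factor AP-1, and Gadd45g (0.78 ± 0.32), a growth arrest gene. Genes of the histocompatibility complex had a median of 0.03 with 0 of 15 called. RT1-DMa, which helps load peptides onto class II molecules, differed by −0.16 ± 0.12. The neutrophil gene S100a9 was lower in FL without overlap (−0.53 ± 0.22), but the granulocyte and mast cell list had a median of −0.01 and 0 of 15 called. Of all probe sets 0.0227% were called, so counts of 0 do not set these lists apart.

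Markers of resident kidney cells differed little. The 6 lists for proximal tubule, loop of Henle with distal convoluted tubule, collecting duct, podocyte, endothelium and smooth muscle with pericyte and fibroblast had medians between −0.04 and 0.08. Of their 98 members measured, counted per list, 0 were called and 4 had an unadjusted p under 0.05, beside 4.84% of all probe sets. The 4 included Dpep1, a brush border dipeptidase (0.49 ± 0.17), Slc5a2, the glucose transporter of the early proximal tubule (0.29 ± 0.14), and Nos3, the endothelial nitric oxide synthase (0.14 ± 0.07, without overlap). The lists not described here had medians between −0.05 (adipose and adrenal tissue) and 0.30 (erythroid cell and platelet, 5 genes measured). Over all 28 lists, 489 of 762 genes were measured, and Ace was the only called member, against 0.0227% of all probe sets called.

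**Figure D5:**
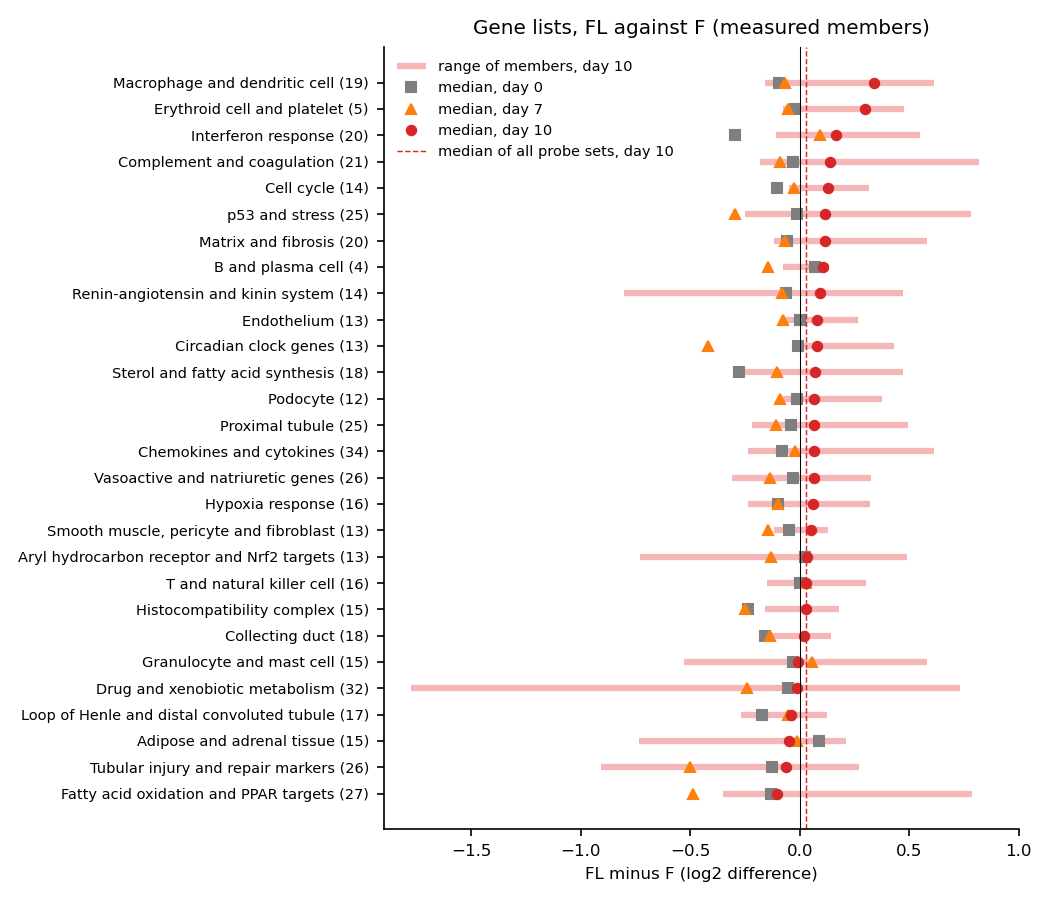
Median FL minus F log2 difference (x axis) of the measured members of 28 gene lists at days 0, 7 and 10, with the number measured in brackets, the range of members at day 10 as a bar and the day 10 median of all probe sets (0.03) as a dashed line. The macrophage list has the highest day 10 median (0.34). Most lists, among them injury, fatty acid oxidation and clock, lie lower at day 7 than at day 10. The median of all probe sets does so too (−0.065 against 0.03).

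The genes beside the called pair did not share their difference. In the order of the RefSeq annotation, the 20 measured genes nearest to Ace, 10 on each side, differed by −0.19 to 0.20, and 0 of them had strains that did not overlap. The 20 nearest to Pitpnm1 differed by −0.20 to 0.32, also with 0 without overlap. Cacng5 lay on the chromosome of Ace, 17 measured genes away. On that chromosome 6 of 636 measured genes did not overlap between the strains (0.943%), against 93 of 7570 genes placed on any chromosome (1.23%).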

How the data were processed

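Per the labels' protocols, kidney RNA was isolated by Trizol and column with a DNase step, cleared of ribosomal RNA, and turned into biotin-labelled targets for whole-transcript arrays. The deposited values are log2 signals, 1 per probe set. RMA and limma are listed in the submitters' processing notes, with neither role nor version. The filter and annotation behind the 8797 probe sets are not given in the sources used here. In the platform annotation 7603 probe sets had 1 gene symbol, 409 several and 785 none, and where a symbol had more than 1 (14 symbols) the brightest probe set was used.

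In R 4.3.3 with limma 3.58.1, a model with 12 group means used every one of the 48 arrays (36 residual degrees of freedom), and p-values of each contrast were adjusted over all probe sets. Tested on simulated data with 200 probe sets changed, 43 of 50 rises of 1 and 23 of 50 of 0.5 were called for FL against F at day 10, with 1 false call among 8597. With that many changed, the adjustment allows a larger unadjusted p than in the real contrast, where 2 were called. These shares do not carry over to the real contrast, in which Gng7 (0.90) and Cacng5 (0.96) were not called. Precision is limited by 4 arrays per group.

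Named genes were the 10 of smallest p in each direction, up to 4 members of each list by p, and Ace, Agt, Agtr1a, Cyp1a1, Havcr1, Lcn2, Hmox1, Clu and Timp1. The comparison and the lists were chosen with earlier results of these data known. Alternatives were a replicate block, other scalings, a covariate for array spread, array weights, a dim filter, a trended variance, only the arrays compared, and leaving out arrays.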

Additional observations from a re-analysis of the deposited data

Results flagged for a closer look

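Single arrays stood apart in 3 of the 106 gene and group pairs examined at day 10, where chance flags about 1 in 20. Hmox1 read 5.74 in F replicate 4 and 8.61 to 9.09 in the other F arrays. Cyp1a1 read 5.70 in FL replicate 4 and 6.66 to 6.83 in the other FL arrays. Itgam read 4.27 in FL replicate 3 and 3.99 to 4.03 in the other FL arrays.

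The FL against F difference at day 10 differed from the LF against L difference by a test of the difference itself for 7 named genes. It was lower in the first pair for Ace (−1.68), Lcn2 (−1.80), Clu (−1.77), Gpnmb (−1.28) and Havcr1 (−3.73). It was higher for Cacng5 (1.42) and Akr7a3 (0.98).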

How the results depend on the processing

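Against 2 calls for FL against F at day 10 (Ace and Pitpnm1), the replicate block gave 5, adding Gng7, Rxrg and Eya2. Replicate number is shared with a prefix of the array names in the labels, and the main fit has no term for it. Same-numbered FL and F arrays deviated together to unequal degrees (r = 0.32, 0.10, 0.03 and 0.53). Numbers 1, 3 and 4 correlated best with themselves, number 3 barely (0.03 against 0.02). FL replicate 2 correlated best with an F array of another number (0.34). The block also gave 11 calls in place of 6 at day 0, 189 in place of 58 at day 7 and 20 in place of 13 for FL against F minus LF against L. A second quantile normalization gave 6 at day 10, the spread covariate 11, array weights 6, only the 8 arrays 0, and both low-spread arrays left out 1. For day 0, median subtraction and quantile normalization each gave 10, weights 15 and only the arrays compared 1. For day 7, weights gave 194 and only the arrays compared 7. The change from day 0 to day 10 had 1 call with weights, and that from day 7 had 4. For LF against L (28), median subtraction gave 50, quantile normalization 65, the covariate 87, weights 51 and only the arrays compared 11. For FL against F minus LF against L, median subtraction gave 24, quantile normalization 33, the covariate 50 and only the arrays compared 1. Without single arrays the counts ran from 0 to 3 at day 10, 13 to 98 at day 7, 16 to 32 for LF against L and 8 to 23 for FL against F minus LF against L. They ran from 0 to 2 for the change from day 0 and from 0 to 1 for that from day 7. Day 10 had 0 calls without FL replicate 2 or 3, or without F replicate 1, 2 or 3. The Agtr1a difference (0.09) turned to −0.020 with the covariate and ran from −0.13 to 0.32 without single arrays, and Hmox1 ran from −1.44 to 0.21. With only the arrays compared, fewer arrays estimate the spread. For the other shifts the cause was not tested. Every difference for Ace stayed below 0 in the 17 alternatives (−0.98 to −0.66), as did that for Pitpnm1 (−0.85 to −0.66).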
